A study of Mus musculus with 3 samples.

Results

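MYC and its partners were measured as RNA, cell type by cell type, in immune cells of MYC-driven liver tumours. The network as counted here holds 9 genes, Myc, Mycl, Max, Mxd1, Mxd3, Mxd4, Mxi1, Mnt and Mga. They were picked by gene symbol alone, and each matched exactly 1 of the 32285 features. The 3 groups were 1 library from mice given DU101, 1 library from mice given DU102 and 1 control library. All 3 came from liver tumours of MYC-ON mice of the C57BL6 strain at 18 weeks, and live CD45+ cells were sorted by flow cytometry before droplet 3′-end sequencing. The labels do not say what DU101 and DU102 are, their doses, what drives MYC in these mice, or how many animals went into a library. Myc below is the count for the mouse gene, and a transgene of another species would not be seen in it.

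MAX is the shared partner of the network. It pairs with MYC or MYCL, and the pair binds the E-box CACGTG and activates genes of growth, ribosome production and cell division. MXD1, MXD3, MXD4, MXI1 and MNT pair with MAX at the same element and repress through the SIN3 corepressor, so they oppose MYC. MGA also pairs with MAX, carries a T-box domain and works within the repressive PRC1.6 complex. MXD1 is known for its high level in cells that have left the cell cycle and differentiated, granulocytes among them, MXD3 for its expression in cycling cells, and MYCL for its use by dendritic cells.

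All 9 are protein-coding genes in GENCODE M21 on GRCm38. Myc lies at chr15:61985391-61990374 on the plus strand, Mycl at chr4:122995652-123002485 (plus) and their partner Max at chr12:76937269-76962201 (minus). Of the MXD genes, Mxd1 lies at chr6:86647042-86669161 (minus), Mxd3 at chr13:55325168-55329823 (minus), Mxd4 at chr5:34173883-34187720 (minus) and Mxi1 at chr19:53310518-53375810 (plus). Mnt lies at chr11:74830920-74845725 and Mga at chr2:119897228-119969581, both on the plus strand.

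Because the proteins bind CACGTG, the start sites of their own genes were read for it, from 250 bases before to 50 after the start (RefSeq, GRCm38.p6). The motif is its own reverse complement, so 1 search covers both strands. Of the 9 genes, 8 had a window, and 3 of the 8 held the motif, Max, Mnt and Mxd4, against 2187 of 27025 genes (8.09%) in the whole table. The windows of these 3 are shown with CACGTG in capitals, 5′ to 3′ on the gene's strand, and that of Mxd1, the member that set neutrophil-like cells apart, is shown beside them without a match.
Max, chr12:76962199-76962498, minus strand: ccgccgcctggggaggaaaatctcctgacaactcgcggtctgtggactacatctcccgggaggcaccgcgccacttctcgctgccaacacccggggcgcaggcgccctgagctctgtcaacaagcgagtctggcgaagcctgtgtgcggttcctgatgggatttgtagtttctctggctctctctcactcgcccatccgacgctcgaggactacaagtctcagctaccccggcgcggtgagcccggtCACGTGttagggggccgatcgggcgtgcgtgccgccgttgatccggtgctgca
Mnt, chr11:74830674-74830973, plus strand: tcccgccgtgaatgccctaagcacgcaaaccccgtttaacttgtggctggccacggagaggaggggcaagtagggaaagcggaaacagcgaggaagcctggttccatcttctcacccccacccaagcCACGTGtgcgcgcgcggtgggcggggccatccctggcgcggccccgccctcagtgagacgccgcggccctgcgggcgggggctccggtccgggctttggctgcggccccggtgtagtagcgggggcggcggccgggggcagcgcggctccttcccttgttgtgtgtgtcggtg
Mxd4, chr5:34187661-34187960, minus strand: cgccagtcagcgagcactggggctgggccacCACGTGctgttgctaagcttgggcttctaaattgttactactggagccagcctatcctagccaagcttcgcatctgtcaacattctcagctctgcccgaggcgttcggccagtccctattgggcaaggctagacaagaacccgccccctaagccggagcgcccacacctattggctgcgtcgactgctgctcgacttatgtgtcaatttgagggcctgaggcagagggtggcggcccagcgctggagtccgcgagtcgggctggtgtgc
Mxd1, chr6:86669110-86669409, minus strand: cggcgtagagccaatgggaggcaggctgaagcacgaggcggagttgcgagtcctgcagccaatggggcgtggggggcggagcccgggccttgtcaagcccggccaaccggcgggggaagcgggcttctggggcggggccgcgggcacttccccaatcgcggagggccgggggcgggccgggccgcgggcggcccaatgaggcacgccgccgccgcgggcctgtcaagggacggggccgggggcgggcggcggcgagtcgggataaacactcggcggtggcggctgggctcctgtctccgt
Counted from the first base of the window, the motif begins at position 248 in Max, 128 in Mnt and 32 in Mxd4. A match describes the letters only.

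The libraries held 15686, 13650 and 12639 cell barcodes for DU101, DU102 and control, with 106604935, 96817875 and 91013198 unique molecular identifiers (UMIs) in all. After filtering, 13799, 11461 and 10154 cells remained, with median depths of 4832, 5091 and 6336 UMIs. Cells were assigned to types by markers, which named 89.4, 90.1 and 90.7% of them, and each type is written as "-like" since no annotation of single cells was used. Libraries shared 57 barcodes (DU101 and DU102), 42 (DU101 and control) and 37 (DU102 and control). The control library stood apart in sex markers. Xist was found in 0.138, 0.0698 and 56.0% of the DU101, DU102 and control cells, and a Y-linked gene in 46.8, 52.5 and 21.01%. The sex markers of control also differed by type. Median log2 ratios of Y-linked genes to control were 3.70 and 3.89 in endothelial-like cells of DU101 and DU102. In neutrophil-like cells they were -0.12 and -0.013. Xist was lower in both treated libraries in every type compared. Ratios were therefore also taken against the 1834 control cells that had a Y-linked gene but not Xist, called male control cells below. This pick needs a detected Y-linked UMI and so favours deeper cells, and treated cells were not picked alike. With 1 library per group there is no replicate check and no test. Levels are UMIs summed per cell type and library, as CPM (a gene's UMIs over all UMIs of that type and library, depth-scaled), and every interval is an exact 95% interval for counting error only. A CPM cannot tell fewer transcripts per cell from more RNA of other genes.

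Across whole libraries, Mxd1 had 165, 255 and 168 CPM in DU101, DU102 and control. Myc had 30.1, 27.9 and 37.4 CPM, and Max 51.6, 56.8 and 58.0 CPM. Mixtures of cell types differ between libraries, so the levels that follow are within a type. The order of levels used the 17 types with at least 30 cells in every library. In 7 of the 9 members the highest type was at or above 2-fold the median type in all 3 libraries. The exceptions were Max and Mnt.

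Myc had its highest means in B-like and hepatocyte- or tumour-like cells and its lowest in neutrophil-like cells. The tumour-like value rests on few, weakly marked cells, and cells with 7 or 8 of the 8 tumour markers had 38.9, 39.4 and 27.9 CPM in DU101, DU102 and control. B-like cells had 95.4 CPM in the DU101 library and 51.8 CPM in the DU102 library, against 103 CPM in control. Hepatocyte- or tumour-like cells had 83.9, 71.6 and 62.5 CPM in DU101, DU102 and control, and NK-like cells 68.4, 44.4 and 68.0 CPM. B-like, NK-like and T-like, tumour-like and endothelial-like cells held the top 5 places by mean. Mean levels over the 3 libraries were 48.9 CPM in endothelial-like and 41.5 CPM in T-like cells, and 28.7 CPM in Kupffer-like, 28.6 in neutrophil precursor-like and 22.9 in macrophage-like cells. At the foot stood monocyte-like cells with 9.59 CPM, patrolling monocyte-like with 6.002, migratory dendritic cell-like with 4.85, pDC-like with 3.32 and neutrophil-like cells with 3.18. Neighbours in this order overlapped in their library ranges, except monocyte-like above patrolling monocyte-like cells.

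Mycl was a dendritic cell gene in these libraries. cDC1-like cells had 45.2, 50.4 and 51.4 CPM in DU101, DU102 and control, pDC-like cells 30.4, 28.9 and 45.1 CPM, and cDC2-like cells 8.52, 7.35 and 10.9 CPM. These 3 types did not overlap in their library ranges with each other or with the next. Migratory dendritic cell-like cells averaged 1.74 CPM, and none of the other 13 types passed a mean of 0.554 CPM. Mycl was at 0 in mast cell- or basophil-like cells of every library. pDC-like cells thus carried Mycl while their Myc was among the lowest.

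Max, which every pair needs, was spread evenly. Neutrophil-like cells stood above the rest with 107.5, 106.6 and 134.7 CPM in DU101, DU102 and control. From Kupffer-like cells (mean 72.0 CPM) down to hepatocyte- or tumour-like cells (36.2 CPM), 14 types lay within a factor of 2. Migratory dendritic cell-like cells with 16.6 CPM and plasma-like cells with 13.6 CPM lay apart below them.

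Mxd1, a repressor partner of MAX, separated neutrophil-like cells from the rest. Neutrophil-like cells held 1062, 1311 and 1801 CPM in the DU101, DU102 and control libraries. Migratory dendritic cell-like cells were next with a mean of 512 CPM, and neither overlapped its neighbour in the order. Mast cell- or basophil-like cells followed with 145 CPM and monocyte-like cells with 125 CPM. At the low end were B-like cells with a mean of 33.6 CPM, Kupffer-like with 32.7, plasma-like with 25.6 and hepatocyte- or tumour-like with 19.5. Neutrophil precursor-like cells, from which neutrophils mature, had 93.0 CPM. In the plot of Mxd1 against Myc, types with the most Mxd1 had little Myc, and the Pearson correlation of the log levels over 17 types was -0.526. The points share 3 libraries and their depth, and the value is a description.

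Mxi1, another repressor, was also high in the neutrophil line. Its means were 73.4 CPM in neutrophil-like, 68.3 in patrolling monocyte-like and 57.0 in neutrophil precursor-like cells, against 7.48 CPM in pDC-like and 4.85 CPM in NK-like cells. Mxd4 was highest in endothelial-like cells, with a mean of 272 CPM and no overlap with the next, T-like cells at 112 CPM. It was lowest in neutrophil precursor-like cells (22.1 CPM) and migratory dendritic cell-like cells (17.5 CPM). So Mxd4 and Mxd1 were high in different types.

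Mxd3 ran from a mean of 16.3 CPM in NK-like and 12.8 CPM in neutrophil precursor-like cells down to 1.37 CPM in Kupffer-like cells. Mnt, a broad repressor, ranged from 23.1 CPM in patrolling monocyte-like to 3.52 CPM in plasma-like cells, and neutrophil-like cells had 10.0, 10.8 and 30.4 CPM in DU101, DU102 and control. Mga was highest in endothelial-like (84.7 CPM), B-like (78.9 CPM), hepatocyte- or tumour-like (65.5 CPM) and pDC-like cells (61.7 CPM). These 4 overlapped their neighbours, and pDC-like cells did not overlap T-like cells below them (44.3 CPM). Over the 17 types, log levels of Mnt and Max correlated at 0.666, of Mga and Mxd4 at 0.570 and of Mga and Myc at 0.529.

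**Figure D1:**
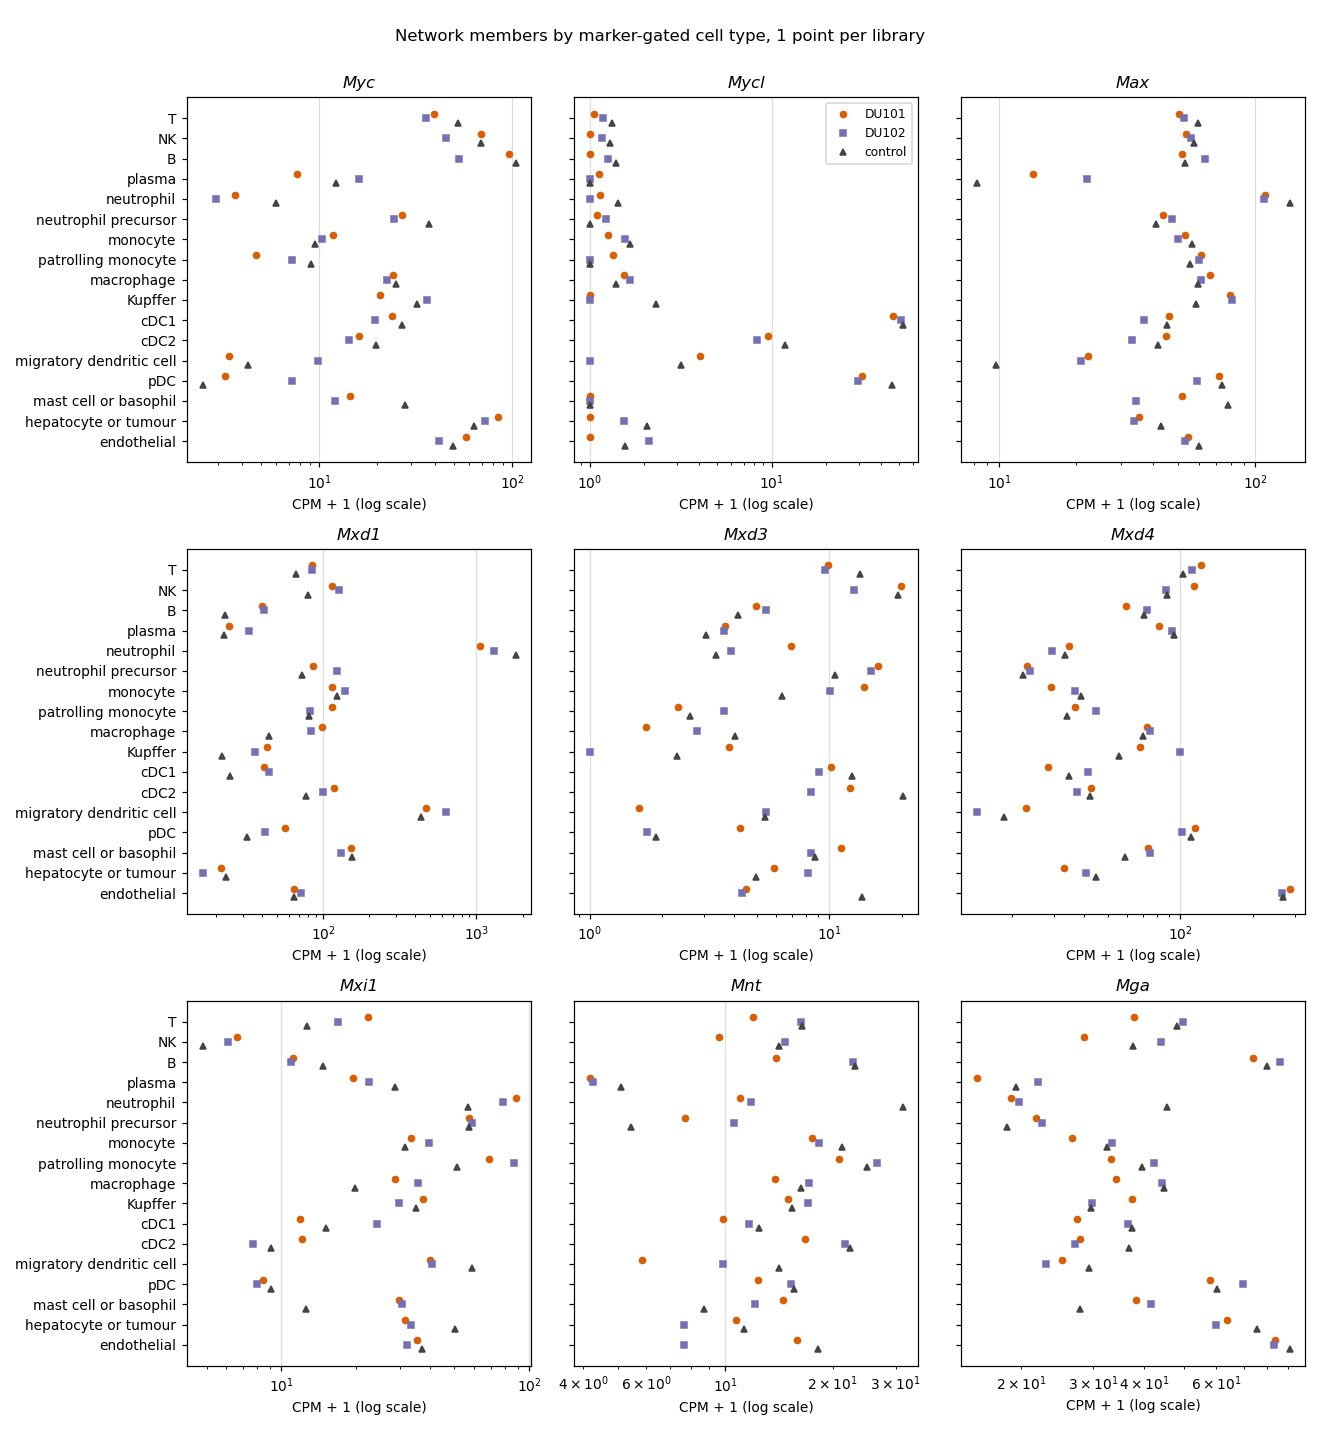
Level of each member in 17 marker-gated cell types, as CPM + 1 on a log scale, with 1 point per library (DU101, DU102, control). Mxd1 is highest in neutrophil cells (1062, 1311 and 1801 CPM), Mycl in cDC1 and pDC, and Mxd4 in endothelial cells.

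**Figure D2:**
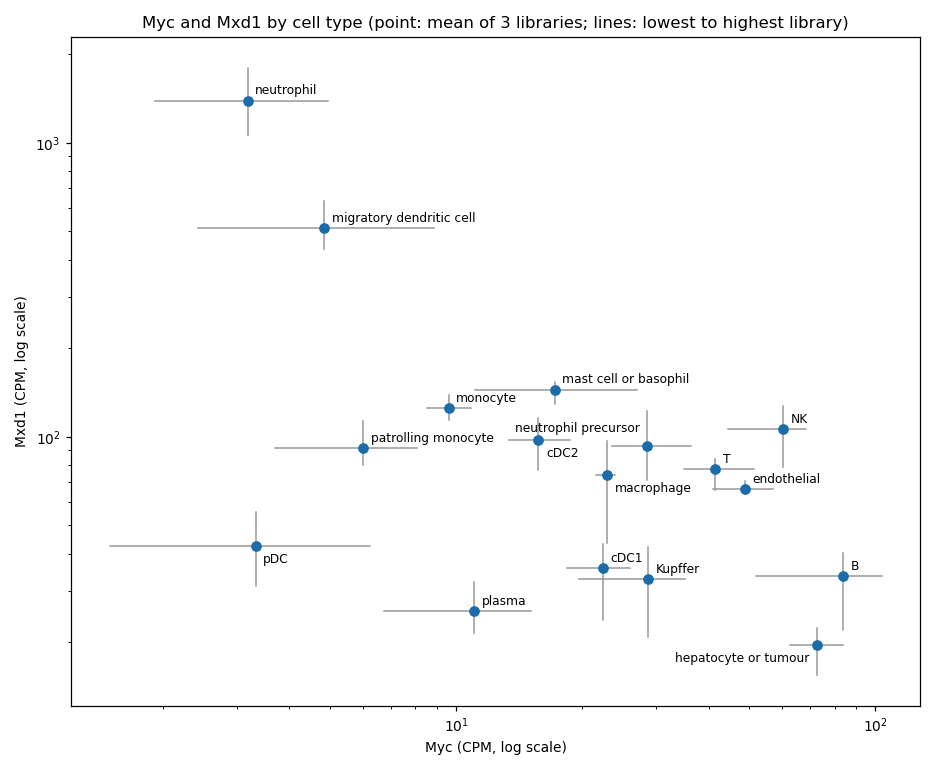
Mean CPM of Myc (x axis, log scale) against Mxd1 (y axis, log scale) over the 3 libraries, 1 point per cell type, with lines from the lowest to the highest library. Neutrophil cells lie at the upper left (Myc 3.18 CPM, Mxd1 1391 CPM), B and hepatocyte or tumour cells at the lower right.

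Treated libraries were then set against control in 14 types, those with 50 or more cells in each library. A member was called higher or lower by size at a ratio of 1.5-fold or more with its interval on that side of 1, given at least 30 UMIs over both libraries. Of 126 pairs of member and type, 107 could be compared in each treated library. For DU101, 10 of the 107 were called higher and 8 lower (9.35 and 7.48%), beside 4.40% and 7.80% of all features and types. For DU102, 11 were called higher and 11 lower (10.3% each), beside 4.85% and 5.53%. The DU101 counts moved with the setting, to 17 higher against male control cells and to 4 lower with ratios centred on the median feature. The shares of all features called under these settings are not given here. Mxd1 and Mxi1 made up most of the higher calls, with 7 of 10 for DU101 and 8 of 11 for DU102. Both treated libraries share the control, so a call in both is not 2 separate results. Calls in both were Mxd1 higher in B-like, cDC1-like and macrophage-like cells, Mxd3 higher in monocyte-like and lower in cDC2-like cells, Mxi1 lower in hepatocyte- or tumour-like cells, and Mnt and Mga lower in neutrophil-like cells. The 2 treated libraries, set against each other, differed by size in 8 of 102 pairs, 4 in each direction, where 3.76% and 6.68% of all features were called higher and lower in DU101. Higher in DU101 than in DU102 were Myc in NK-like and B-like cells and Mxd3 in NK-like and neutrophil-like cells. Lower were Mnt and Mga in NK-like cells, Mnt in B-like cells and Mxi1 in cDC1-like cells. Mycl, Max, Mxd1 and Mxd4 had no call between the treated libraries.

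Mxd1 was called higher in 5 of 14 types for DU101 and 5 of 13 for DU102, and lower in neutrophil-like cells for DU101. Its ratio to control was above 1 in 11 of 14 types for DU101 and 11 of 13 for DU102, with median log2 ratios of 0.51 and 0.37, where the median of all features lay within 0.1 of 0 in most types. Macrophage-like cells had the largest called ratio, at 96.8 CPM in DU101 and 82.2 CPM in DU102, against 43.6 CPM in control. That is 2.22-fold (interval 1.93 to 2.56) for DU101 and 1.89-fold (1.62 to 2.19) for DU102, in a type where 4.52% and 3.88% of features were called higher. cDC1-like cells had 40.1 and 43.3 CPM in DU101 and DU102, against 23.9 CPM in control, or 1.68-fold (1.32 to 2.14) and 1.81-fold (1.39 to 2.37). B-like cells had 38.7 and 40.1 CPM, against 22.0 CPM in control, or 1.76-fold (1.22 to 2.55) and 1.82-fold (1.33 to 2.52). Features called higher made up 1.93% (DU101) and 2.88% (DU102) in cDC1-like cells and 3.65% and 5.94% in B-like cells. In these types the treated libraries lay close to each other and above control. Against male control cells the log2 ratio in macrophage-like cells was 1.57 for DU101 and 1.34 for DU102, beside 1.15 and 0.92 against all control cells.

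NK-like cells had 114 and 127 CPM of Mxd1 in DU101 and DU102, against 79.0 CPM in control, and only DU102 passed the size limit, at 1.61-fold (1.47 to 1.77), beside 4.40% of features. Neutrophil precursor-like cells had 85.3 and 122 CPM, against 71.5 CPM in control, with DU102 called at 1.71-fold (1.48 to 1.98), beside 5.72% of features. DU101 alone was called in cDC2-like cells, with 116 CPM, against 77.0 CPM in control, beside 2.26% of features. It was also called in pDC-like cells, with 55.7 CPM, against 31.0 CPM in control, beside 3.71%. Hepatocyte- or tumour-like and endothelial-like cells had no Mxd1 call in either treated library. These calls count all Mxd1 UMIs of a type, including any carried over from neutrophils.

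Neutrophil RNA was present in the droplets of other types. All 8 neutrophil markers had UMIs in macrophage-like cells, with a summed level of 1631, 5302 and 313 CPM in DU101, DU102 and control, of which S100a8 and S100a9 made up 93.0, 97.1 and 77.8%. Summed levels were 2631, 9754 and 3815 CPM in B-like cells, 2373, 2396 and 209 CPM in cDC1-like cells and 736, 2922 and 395 CPM in NK-like cells. Scaling neutrophil-like cells to the S100a8 and S100a9 counts gave an estimate of the Mxd1 that would come with them. It came to 5.42, 25.4 and 6.53% of Mxd1 UMIs in macrophage-like cells of DU101, DU102 and control, and to 2.17, 8.99 and 5.30% in NK-like cells. With it taken off, the log2 ratio in macrophage-like cells was 1.17 for DU101 and 0.59 for DU102, and in cDC1-like cells 0.56 and 0.64. In B-like cells the estimate was 23.2, 97.1 and 199.7% of the Mxd1 UMIs. It passed the whole control count, so no ratio to control remained there. The log2 ratio of -0.019 for DU102 was set against a floor of 3 UMIs in control. In pDC-like cells the estimate was 12.7, 79.8 and 7.02%. Shares of 92.9, 111 and 9.10% were found for the tumour-like type of DU101, DU102 and control. The estimate thus took up nearly all Mxd1 UMIs there in DU101 and passed the whole count in DU102. The absence of an Mxd1 call in that type therefore does not show an unchanged level, and a change was not tested. Patrolling monocyte-like cells had shares of 42.4, 80.4 and 25.4%.

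Mxi1 was called higher by DU101 in T-like cells, at 21.3 CPM in DU101 and 15.9 CPM in DU102, against 11.7 CPM in control. The ratio was 1.83 (1.51 to 2.23) for DU101, beside 3.99% of features called higher, and 1.37 (1.11 to 1.69) for DU102. Macrophage-like cells had 27.8 and 34.7 CPM in DU101 and DU102, against 18.8 CPM in control, with DU102 called at 1.84-fold (1.46 to 2.33). Patrolling monocyte-like cells had 68.2 and 86.2 CPM, against 50.4 CPM in control, again with DU102 called, at 1.71-fold (1.41 to 2.07), beside 4.50% of features. Mxi1 was thus above control in both treated libraries in these 3 myeloid and lymphoid types. In cDC1-like cells DU102 alone was called, with 23.3 CPM, against 14.1 CPM in control, and DU101 had 10.8 CPM. The carried-over share of Mxi1 was 2.29, 7.59 and 0.636% in T-like cells and 1.55, 3.55 and 0.467% in macrophage-like cells of DU101, DU102 and control. Hepatocyte- or tumour-like cells had the opposite order, with 30.5 and 32.3 CPM in DU101 and DU102, against 49.1 CPM in control. These are ratios of 0.622 (0.490 to 0.787) and 0.658 (0.533 to 0.813), in a type where 12.9% and 6.69% of features were called lower and the median feature had log2 ratios of -0.16 and -0.10. Weighted cell by cell, in place of summed UMIs, the log2 ratio for DU101 was 0.63, and in cells without cycle genes that for DU102 was 0.20.

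Myc itself had no higher call, and 1 lower call for DU101 and 4 for DU102, each of 13 types, where 7.80% and 5.53% of all features and types were called lower. B-like cells of DU102 were at 0.501 of control (0.415 to 0.604), beside 3.52% of features called lower, where DU101 was at 0.922 (0.756 to 1.12). NK-like cells of DU102 were at 0.653 of control (0.568 to 0.749), beside 1.92%, where DU101 was at 1.01 (0.899 to 1.12). DU101 over DU102 passed the size limit in both types, as listed above. Neutrophil precursor-like cells had 25.9 and 23.5 CPM in DU101 and DU102, against 36.3 CPM in control, and DU102 was called at 0.649 (0.519 to 0.817), beside 5.18% of features. The lower calls in neutrophil-like cells (DU102, 0.386, beside 33.0% of features) and patrolling monocyte-like cells (DU101, 0.457, beside 6.17% of features) rested on levels under 10 CPM. In those 2 types the estimate of Myc carried over from tumour-like cells reached 25.8% and 45.8% of Myc UMIs. It was at most 1.32% in T-like, NK-like and B-like cells.

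Mycl in pDC-like cells was lower in both treated libraries, at 0.675 (0.516 to 0.879) for DU101 and 0.641 (0.482 to 0.847) for DU102, and only DU102 passed the size limit, beside 2.14% of features called lower. cDC1-like cells, the other holders of Mycl, had no call. Max had none in any of the 14 types, and its ratios in neutrophil-like cells were 0.798 and 0.791. Mxd4 had a single call, in Kupffer-like cells of DU102 with 99.3 CPM, against 54.9 CPM in control (1.81, 1.10 to 2.95), beside 4.36% of features. DU101 had 67.3 CPM there.

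Mxd3 had opposite directions in a pair of myeloid types. Monocyte-like cells had 12.99 and 9.10 CPM in DU101 and DU102, against 5.34 CPM in control, or 2.43-fold (1.67 to 3.61) and 1.70-fold (1.13 to 2.59), beside 6.63% and 6.91% of features called higher. Dividing cells were 146 of 987, 112 of 758 and 47 of 801 monocyte-like cells in DU101, DU102 and control. cDC2-like cells had 11.1 and 7.35 CPM, against 19.2 CPM in control, or 0.580 (0.377 to 0.876) and 0.383 (0.184 to 0.722), beside 6.10% and 3.65% called lower. Against male control cells Mxd3 in monocyte-like cells had log2 ratios of 0.13 for DU101 and -0.38 for DU102, and in cDC2-like cells, of which 29 were male control cells, 0.68 and 0.077. Neither direction held in that comparison for both treated libraries. Male control cells were picked for a detected Y-linked UMI, which favours deeper cells, and treated cells were not. Dividing monocyte-like cells of control had a median of 21554 UMIs, and the other monocyte-like cells 8432. The part of this pick in the turn was not tested. DU101 was also called for Mxd3 in neutrophil-like cells (5.88 CPM, against 2.37 CPM in control, beside 9.54% of features) and neutrophil precursor-like cells (14.9 CPM, against 9.58 CPM in control, beside 3.60%). In cells without cycle genes both turned, to log2 ratios of -1.07 and -2.89, with few UMIs in control. All neutrophil-like cells held 44 and 11 Mxd3 UMIs in DU101 and control, and neutrophil precursor-like cells 146 and 28. Counts without cycle genes are not given here, and a control count of 0 was set to 3 UMIs. That can put a ratio under 1 by itself, so no direction is read from these 2 values. DU102 was called lower in NK-like cells with 11.7 CPM, against 18.4 CPM in control, beside 1.92% of features. Dividing cells were 150 of 631 NK-like cells in DU102, against 385 of 1150 in control.

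Mnt was lower by DU101 in NK-like cells (8.59 CPM, against 13.1 CPM in control, beside 4.47% of features) and B-like cells (12.9 CPM, against 22.0 CPM in control, beside 7.95%). In DU102 it was lower in endothelial-like cells, with 6.65 CPM from 6 UMIs, against 17.2 CPM in control, beside 4.72%. It was higher in neutrophil precursor-like cells of DU102 with 9.59 CPM, against 4.45 CPM in control, but weighted cell by cell the log2 ratio there was -0.62. Mga was lower in neutrophil-like cells of both treated libraries, with 17.9 and 18.8 CPM in DU101 and DU102, against 44.4 CPM in control, in the type where 25.3% and 33.0% of all features were lower and the share of granule-rich cells differed. Mnt ratios for DU101 were under 1 in 12 of 13 types, and Mga ratios in 12 of 14, where 57.3% of all features were under 1. For DU102 they were under 1 in 9 of 13 types for Mnt and in 6 of 14 for Mga, where 48.2% of all features were. Most of these did not pass the size limit.

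**Figure D3:**
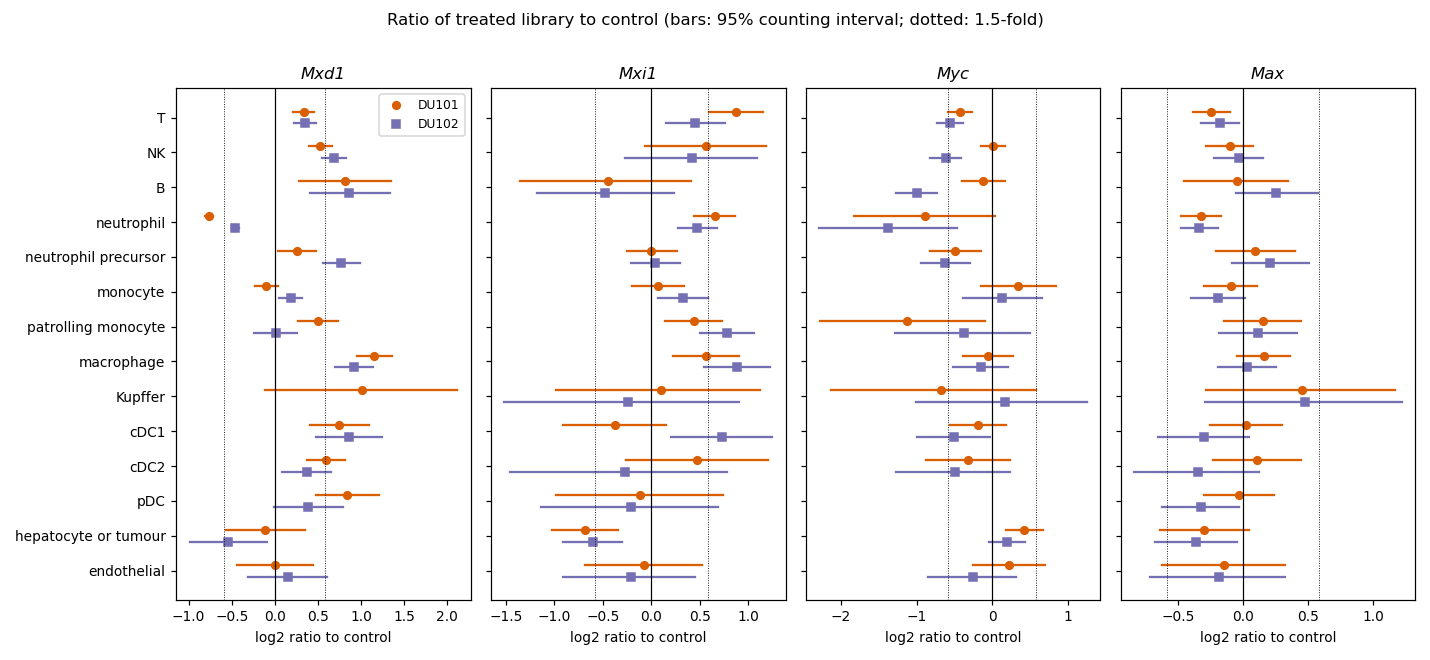
Log2 ratio of each treated library to control by cell type for Mxd1, Mxi1, Myc and Max, with bars for the 95% counting interval and dotted lines at 1.5-fold. Mxd1 lies right of 0 in macrophage cells (2.22-fold and 1.89-fold) and left of it in neutrophil cells (0.590 and 0.728), and no Max ratio is called.

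Myc in all T-like cells was at 38.3 and 34.9 CPM in DU101 and DU102, against 51.4 CPM in control, with no call. Split by single genes, Cd8+ cells (1900, 1455 and 756 cells in DU101, DU102 and control) had calls for both Myc and Mxi1. Their Myc was at 38.4 and 39.2 CPM in DU101 and DU102, against 62.9 CPM in control, ratios of 0.610 (0.529 to 0.703) and 0.622 (0.538 to 0.720). In these cells 5.57% and 1.91% of features were called lower and 4.12% and 5.31% higher. Their Mxi1 was at 17.9 and 14.9 CPM, against 9.64 CPM in control, ratios of 1.85 (1.37 to 2.54) and 1.55 (1.13 to 2.14). Myc RNA was thus lower and Mxi1 RNA higher in these cells of both treated libraries. Against male control cells the log2 ratios of Myc were -0.36 and -0.33, short of the size limit, and those of Mxi1 0.74 and 0.48, of which that for DU101 lay above 1.5-fold. Mnt was called lower in Cd8+ cells of DU101 alone, with 9.78 CPM, against 16.1 CPM in control. Cd4+ cells had no Myc call, with 35.0 and 21.7 CPM in DU101 and DU102, against 25.4 CPM in control. The difference between Cd8+ and Cd4+ cells was not tested. Foxp3+ cells, the regulatory T cell marker, had 55.9 CPM of Mxi1 in DU101 and 21.8 CPM in DU102, against 25.8 CPM in control, and DU101 was called at 2.17-fold (1.32 to 3.69) beside 4.59% of features. Mxd1 was called in Foxp3+ cells of DU102 with 166 CPM, against 110 CPM in control (1.51, 1.16 to 1.98), beside 4.57% of features, and at a log2 ratio of 0.013 against male control cells. Mycl, Max, Mxd3, Mxd4 and Mga had no call in any of the 3 T-like subsets.

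Neutrophil-like cells were the exception for Mxd1, at 0.590 of control (0.572 to 0.608) for DU101 and 0.728 for DU102. In this type 25.3% and 33.0% of all features were called lower, and the median feature had log2 ratios of -0.24 and -0.40. The make-up of the type differed between libraries. Cells with at least 2 of the granule genes Camp, Ngp and Ltf, which younger neutrophils express, made up 46.1 and 37.4% of neutrophil-like cells in DU101 and DU102, against 10.2% in control. Mxd1 was lower in these granule-rich cells than in granule-poor ones in all 3 libraries. Granule-rich cells had 708, 804 and 929 CPM in DU101, DU102 and control, and granule-poor cells had 2190, 2480 and 2145 CPM. Within granule-poor cells Mxd1 was thus at 1.02 (0.982 to 1.06) and 1.16 (1.12 to 1.19) of control, with no call, where 5.82% and 5.15% of features were called higher. Within granule-rich cells it stayed below control in both treated libraries. The intervals there were 686 to 730 CPM in DU101 and 785 to 824 CPM in DU102, against 877 to 982 CPM in control. In granule-rich cells 7.66% and 14.3% of features were called lower. The 2 kinds of cell thus differed in direction. The granule split was made after the data were seen, and the 2 kinds of cell also differed in depth, with median UMIs of 7470, 10495 and 10070 in granule-rich and 1807, 2260 and 2591 in granule-poor cells.

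Mxi1 was higher in granule-poor cells of both treated libraries, at 103 and 94.1 CPM in DU101 and DU102, against 54.7 CPM in control. These were ratios of 1.89 (1.53 to 2.34) and 1.72 (1.43 to 2.07). In granule-rich cells it was at 82.2 and 70.0 CPM, against 58.0 CPM in control, with ratios of 1.42 and 1.21 and no call. Mnt stayed lower in granule-poor cells at 22.4 and 22.1 CPM, against 38.5 CPM in control (0.582 and 0.576), where 8.69% and 19.3% of features were called lower. Mga had 39.2 and 33.1 CPM there, against 55.9 CPM in control, and DU102 was called at 0.592, but at a log2 ratio of 0.11 against male control cells. Max had 157 and 154 CPM in granule-poor cells of DU101 and DU102, against 142 CPM in control. Myc, Mycl, Mxd3 and Mxd4 had no call in either kind of cell. All 44 Mxd3 UMIs of neutrophil-like cells in DU101 lay in granule-rich cells. Mxd3 in granule-rich cells was at 7.73 CPM (5.62 to 10.4) in DU101 and 3.99 CPM (2.73 to 5.63) in DU102. Control had 4.58 CPM (1.68 to 9.96) from 6 UMIs. The part of the granule-rich share in the Mxd3 calls of whole neutrophil-like cells was not tested.

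**Figure D4:**
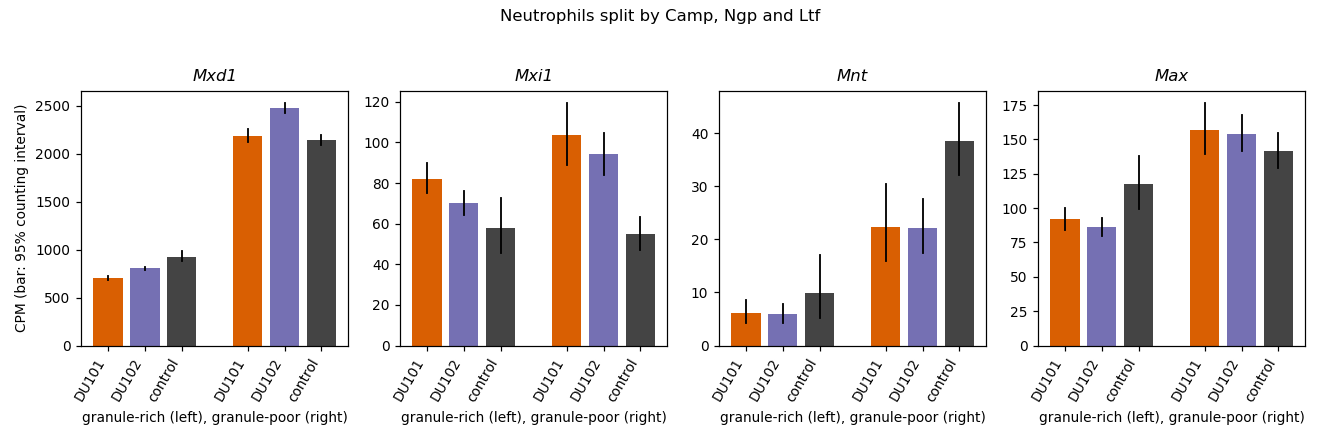
CPM of Mxd1, Mxi1, Mnt and Max in granule-rich (left bars) and granule-poor (right bars) neutrophil cells of the DU101, DU102 and control libraries, with 95% counting intervals. Mxd1 is higher in granule-poor cells (2190, 2480 and 2145 CPM) than in granule-rich cells (708, 804 and 929 CPM), and Mxi1 is above control in both treated libraries.

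The sort was for CD45+ cells, yet 235, 353 and 170 cells of DU101, DU102 and control carried hepatocyte or tumour markers. Their Ptprc, which encodes CD45, was at 49.5, 41.3 and 34.3 CPM, where T-like cells had 965, 1085 and 934 CPM. Myc in these cells came from few of them. It was found in 81, 90 and 53 cells, and the 10 cells with the most UMIs held 56.6, 42.6 and 62.4% of all Myc UMIs. DU101 over control was 1.34 (1.13 to 1.59) and DU102 over control 1.15 (0.973 to 1.35), with no call. Without the cell with the most Myc UMIs, levels were 65.0, 67.5 and 49.8 CPM in DU101, DU102 and control.

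Myc also depended on how many of the 8 markers a tumour-like cell showed. Cells with 7 or 8 markers had 38.9, 39.4 and 27.9 CPM in DU101, DU102 and control, and were deep, with median UMIs of 17359, 17552.5 and 28892. They carried Afp, a fetal liver protein made by liver tumours, at 3804, 4424 and 2888 CPM. Cells with only 3 or 4 markers had 194, 243 and 456 CPM of Myc and median UMIs of 2577, 1109 and 2058. The best-marked tumour cells thus had the lowest Myc of the gate in all 3 libraries.

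Dividing cells, with at least 3 of 10 cycle genes, were compared with the other cells of the same type and library, in 6 types and 3 libraries. Of all features, 14.7% were called higher and 10.0% lower in dividing cells. Mxd3 had enough UMIs in 12 of 18 comparisons and was called higher in all 12. Other cells held at most 7 Mxd3 UMIs in any of them. The minimum of 30 UMIs was thus passed through the dividing cells, so the count of calls largely follows from the filter. Hepatocyte- or tumour-like cells were weaker. DU102 had 40 UMIs against 0, a ratio of 3.26 to a floor of 3 UMIs. DU101, not called, had 17 against 2 UMIs, or 1.61 (0.381 to 14.3). Dividing T-like cells had 45.3, 35.3 and 47.1 CPM of Mxd3 in DU101, DU102 and control, where other T-like cells had 0.452, 0.332 and 0.327 CPM. Dividing NK-like cells had 53.8, 30.6 and 37.1 CPM, and other NK-like cells 0.430, 0.264 and 0.431 CPM. In these types Mxd3 was nearly absent outside dividing cells. In cDC1-like cells it had no UMI in other cells. Against a floor of 3 UMIs over that group, the ratio for dividing cells was 31.7 in DU101 and 25.3 in control. The lower limits of the counting interval were 24.9 and 19.8.

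Mxd4 went the other way and was called lower in dividing cells in 15 of 18 comparisons. Dividing T-like cells had 63.3, 44.4 and 60.9 CPM in DU101, DU102 and control, and other T-like cells 135, 132 and 116 CPM. Mxd1 was lower in 13 of 18. Dividing NK-like cells had 70.5, 85.7 and 54.9 CPM of Mxd1, and other NK-like cells 137, 152 and 102 CPM. The 3 MXD genes thus divided into 1 that was high and 2 that were low in dividing cells.

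Myc did not follow division in a single direction. It was higher in dividing monocyte-like cells in all 3 libraries, with 19.9, 23.0 and 15.4 CPM in DU101, DU102 and control, where other monocyte-like cells had 6.66, 3.25 and 7.44 CPM. In NK-like cells it was lower in dividing cells of DU101 (51.4 CPM, against 77.4 CPM) and control (48.6 CPM, against 86.7 CPM). Hepatocyte- or tumour-like cells had less Myc when dividing in all 3, with 68.9, 53.6 and 54.2 CPM in dividing and 163, 145 and 159 CPM in other cells. Max, Mnt, Mga and Mxi1 had at most 2 calls each in 18 comparisons, and Mycl 1 lower call in 3, in cDC1-like cells of DU101 (0.660).

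Dividing cells were deeper, with a median of 1.38 to 15.6 times the UMIs of the other cells. Among cells with at least 5000 UMIs, 14.6% of all features were called higher and 8.91% lower. There Mxd4 was called lower in 15 of 18 comparisons, Mxd1 lower in 12 of 18, and Myc higher in 3 and lower in 6 of 18. Mxd3 was called higher in 11 of 12 comparisons. Other cells held at most 4 Mxd3 UMIs in any of these 12, so the Mxd3 count again largely follows from the filter. In hepatocyte- or tumour-like cells with at least 10000 UMIs, Myc in DU101 was at 40.3 CPM in dividing and 26.6 CPM in other cells (1.51, 0.745 to 3.59), with 10 other cells. At that depth Myc was still called lower in dividing cells of DU102 (0.443, 0.339 to 0.583) and control (0.160, 0.103 to 0.256, with 5 other cells).

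**Figure D5:**
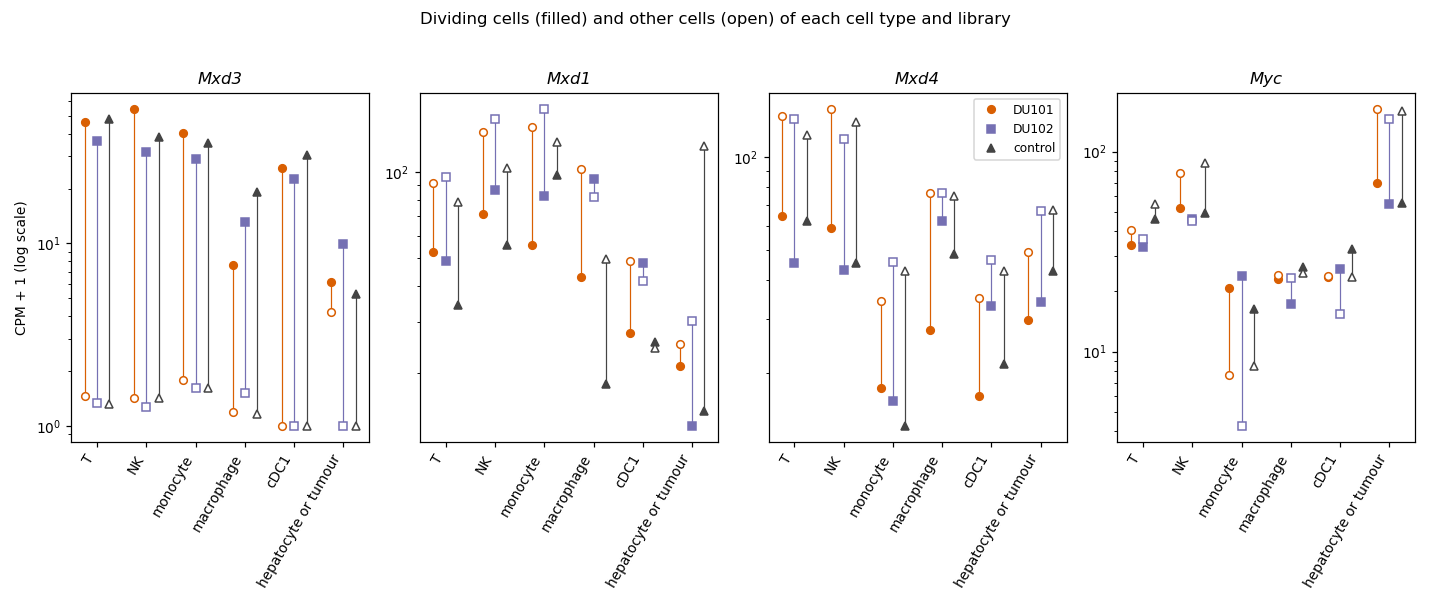
CPM + 1 on a log scale in dividing (filled) and other cells (open) of 6 cell types for Mxd3, Mxd1, Mxd4 and Myc, with DU101, DU102 and control in turn within each type. Mxd3 is higher in dividing T cells (45.3, 35.3 and 47.1 CPM, against 0.452, 0.332 and 0.327 CPM), and Mxd4 is lower.

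Genes that MYC is known to drive were read alongside, as 32 genes of ribosome production and growth. Of 420 comparisons for DU101, 6 were called higher and 36 lower (1.43 and 8.57%), beside 4.40 and 7.80% of all features. Of 424 for DU102, 6 were higher and 34 lower (1.42 and 8.02%), beside 4.85 and 5.53%. Against male control cells the higher calls were 38 for DU101 and 29 for DU102, and the lower calls 53 and 44. The counts thus moved with the control cells used. The shares of all features called in that comparison are not given here, so these counts cannot be set against a background. For DU102, 19 of the 34 lower calls were in neutrophil-like cells, where 33.0% of all features were lower. The cyclin gene Ccnd2 was at 84.0 CPM in macrophage-like cells of DU101, against 256 CPM in control (0.328, 0.296 to 0.364), and Odc1, which starts polyamine synthesis, at 79.7 CPM in B-like cells of DU101, against 35.4 CPM in control (2.25). In T-like cells of DU101, Cad, the first enzyme of pyrimidine synthesis, was at 8.24 CPM, against 20.4 CPM in control, a ratio of 0.404 (0.329 to 0.495).

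The 10 genes that MYC is known to hold down were called higher in 29 of 113 comparisons for DU101 (25.7%) and lower in 10 (8.85%). For DU102 they were called higher in 12 of 114 (10.5%) and lower in 10 (8.77%). Of all features, 4.40% and 4.85% were called higher and 7.80% and 5.53% lower for DU101 and DU102. The shares of the list thus lay above those of all features in both directions. It was the list with the largest share of higher calls among the 6 lists of network and target genes. Cdkn1a, which encodes a cell cycle inhibitor, was at 315 and 257 CPM in hepatocyte- or tumour-like cells of DU101 and DU102, against 83.9 CPM in control, or 3.75-fold (3.31 to 4.26) and 3.06-fold (2.71 to 3.47). In pDC-like cells of DU101 it was at 60.2 CPM, against 8.66 CPM in control, or 6.95-fold (4.68 to 10.7). In neutrophil-like cells it was lower, at 73.7 and 64.9 CPM in DU101 and DU102, against 172 CPM in control. The anti-proliferative gene Btg1 was higher in NK-like cells of DU101 at 1287 CPM, against 827 CPM in control (1.56). In neutrophil-like cells of DU102 it was lower, at 946 CPM, against 2165 CPM in control (0.437). Of 8 list genes compared in neutrophil-like cells, 4 were lower and 1 higher in DU101, and 5 and 0 in DU102. There 25.3% and 33.0% of all features were lower. Counts for this list against male control cells are not given here. Cdkn1a responds to many signals other than MYC.

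Genes of the wider network, such as the MLX branch and SIN3 partners, had 6 higher and 21 lower calls of 254 for DU101 (2.36 and 8.27%, beside 4.40 and 7.80% of all features) and 6 and 16 of 253 for DU102 (2.37 and 6.32%, beside 4.85 and 5.53%). Txnip and Arrdc4, targets of the MLX branch, were lower in neutrophil-like cells. Arrdc4 was at 15.5 and 19.0 CPM in DU101 and DU102, against 64.0 CPM in control, and Txnip in DU102 at 271 CPM, against 912 CPM in control. The share of granule-rich cells moves with values of whole neutrophil-like cells, and its part in them was not tested. Genes of MYC protein turnover had 3 higher and 10 lower of 115 for DU101 (2.61 and 8.70%) and 8 and 3 of 121 for DU102 (6.61 and 2.48%). Cip2a, which protects MYC from degradation, was at 8.96 and 8.87 CPM in neutrophil-like cells of DU101 and DU102, against 1.94 CPM in control. PRC1.6 partners of Mga had 3 higher and 5 lower of 110 for DU101 (2.73 and 4.55%) and 1 and 6 of 111 for DU102 (0.901 and 5.41%). Pvt1, the gene beside Myc, had 1 lower call in each, in patrolling monocyte-like cells.

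The features whose levels most resembled each member were ranked by the Pearson correlation of log levels over the 8 types with at least 200 cells in every library, among 4225 features. Mxd3 was most like Ube2s, a mitotic ubiquitin enzyme (0.996), and the histone genes Hist1h2bb and Hist1h2bj. Mxd1 was most like Ppp1r3b (0.989), Il1rap (0.976) and Cwc25 (0.975), and Mxi1 like Fem1c (0.985), Kdm6b (0.971) and Socs3 (0.967). Max was most like Adpgk (0.982), and like the MXD pair its partners in the ranking were highest in neutrophil-like cells. Myc was most like Pmf1 (0.948), Snhg12 (0.938) and Chd4 (0.934), Mnt like Xpr1 (0.963), Mga like St6gal1 (0.963) and Mxd4 like Pigp (0.981). For Mycl, Sh3bgr, Lefty1 and Pgam2 ranked first, and pDC-like cells had the highest level of Mycl and of each of them among the 8 types. The cDC1-like cells, with the highest Mycl mean of all types (49.0 CPM), were not among the 8. A feature high in pDC-like cells alone thus ranks near Mycl by the choice of types, and no likeness in cDC1-like cells is read from it. The 8 points share libraries and depth, and the correlations are descriptions.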

How the data were processed

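The authors deposited raw UMI counts per gene and cell barcode, limited to called cells (lowest total 500 UMIs). Cell Ranger 6.0.0 is named per the file headers, and Cell Ranger 2.1.1 and mm10 per the submitters' processing notes. No source used here gives the annotation release. Tables of the authors' cluster comparisons were left out.

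Cells under 200 genes or over 10% mitochondrial UMIs were removed, a limit that 9.09, 14.0 and 17.4% of DU101, DU102 and control barcodes exceeded. Doublets (3.14, 2.06 and 2.53%) were called with Scrublet in scanpy 1.11.5 and removed. A marker counted as present in a cell at or above its mean share over the library. A cell took the type with the most of 8 markers present, at least 3 and ahead by 1, and macrophage cells with at least 3 Kupffer markers were named Kupffer. The names were set beside joint Leiden clusters (resolution 1), where 60.4 to 66.0% of neutrophil precursor-like cells fell in clusters of that name, and no cluster was named Kupffer. UMIs were summed per type and library, and ratios given with exact conditional Poisson intervals (scipy 1.17.1). Levels used types with at least 30 cells in every library, ratios 50 and likeness 200, on log2 of CPM + 10. These minima and the gate's scoring were set after cell counts were seen. The scripts were tested on simulated data.

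All 9 members are named in every comparison. From each list of other genes, the 2 largest and 2 smallest called ratios in a type could be named, and for likeness the 3 closest features. The members and lists were chosen with earlier results of these data known.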

Additional observations from a re-analysis of the deposited data

Results flagged for a closer look

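Mxd3 had opposite directions in a pair of cell types of the same treated libraries. In monocyte-like cells its log2 ratio to control was 1.28 for DU101 and 0.77 for DU102, and in cDC2-like cells it was -0.79 for DU101 and -1.38 for DU102. With 1 library per group, the difference between the types was not tested. Dividing against other cells was compared in monocyte-like but not in cDC2-like cells. Dividing cells, where monocyte-like Mxd3 was nearly all found, numbered 146 of 987 monocyte-like cells in DU101 and 112 of 758 in DU102, against 47 of 801 in control. The part of this in the ratios was not tested. The cDC2-like direction turned for both treated libraries by Leiden clusters and in cells whose gate and cluster names were the same. It also turned against male control cells (0.68 and 0.077 for DU101 and DU102). The monocyte-like direction turned for DU102 against male control cells (-0.38). Without cycle genes the values were 0.38 and 0.27 in cDC2-like cells of DU101 and DU102, and -0.025 in monocyte-like cells of DU102. For cDC2-like cells the counts behind them are not given here, and a control count of 0 was set to 3 UMIs. No direction is read from the values without cycle genes. Outside dividing cells, monocyte-like cells held only 4, 3 and 4 Mxd3 UMIs in DU101, DU102 and control. Male control cells were picked for a detected Y-linked UMI, which favours deeper cells, and treated cells were not.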

How the results depend on the processing

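No paired analysis was possible because each group has 1 library. Each of 52 single-gene ratios was recomputed under up to 14 settings, giving 655 values, of which 580 kept their direction and stayed within counting error, 57 moved beyond it and 18 turned round. In 42 of the 52 none turned round. The cause was not tested. The gate by cluster names, the taking off of carried-over RNA and the splits of T and neutrophil cells were chosen after seeing the data.

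Values that turned round are log2 ratios to control. By Leiden clusters, Mxd3 in cDC2-like cells was 0.13 (DU101) and 0.092 (DU102), and in cells whose gate and cluster names were the same 0.0045 and 0.44. Each cell weighted alike gave -0.62 for Mnt in neutrophil precursor-like cells of DU102 and 0.63 for Mxi1 in hepatocyte- or tumour-like cells of DU101. Against male control cells (a Y-linked gene but not Xist), Mxd3 was 0.68 and 0.077 in cDC2-like cells and -0.38 in monocyte-like cells of DU102, and Mga was 0.11 in granule-poor neutrophil-like cells of DU102. In cells without cycle genes, Mxd3 was -1.07 in neutrophil-like and -2.89 in neutrophil precursor-like cells of DU101, -0.025 in monocyte-like cells of DU102, and 0.38 and 0.27 in cDC2-like cells. There Mnt in neutrophil precursor-like cells of DU102 was -0.054 and Mxi1 in hepatocyte- or tumour-like cells of DU102 was 0.20. Where compared, Mxd3 had at most 7 UMIs in cells outside division. A control count of 0 was set to 3 UMIs, so no direction is read from these Mxd3 values. With carried-over RNA taken off, Mxd1 in B-like cells of DU102 was -0.019. That value was set against a floor of 3 UMIs, since the estimate passed the whole control count.

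Higher calls among members for DU101 were 17 against male control cells and 3 at a fold of 2, and lower calls 4 with ratios centred on the median feature and 3 at a fold of 2. For DU102, a fold of 2 left 1 higher and 5 lower. The counts in this paragraph stand without the shares of all features called under the same settings. MYC target genes called higher for DU101 were 10 at a mitochondrial limit of 5%, 11 by Leiden clusters, 11 at a marker lead of 2, 38 against male control cells, 1 at a fold of 2 and 3 without cycle genes, and lower were 13 at a fold of 2. For DU102 they were 13, 12 and 29 higher by Leiden clusters, marker lead and male control cells, 3 centred, 1 at a fold of 2 and 2 without cycle genes, and 10 and 18 lower at a fold of 2 and with cells alike.

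Across all settings Mxd1 in macrophage-like cells ranged from 1.00 to 1.57 (DU101) and 0.59 to 1.34 (DU102), Mxi1 in T-like cells of DU101 from 0.74 to 1.17, and Myc in B-like cells of DU102 from -1.37 to -0.87. Of 14 types, 3 had enough UMIs for a ratio of Mycl in each treated library, and 8 (DU101) and 9 (DU102) for Mxd3.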
